A study of Mus musculus with 5 samples.

Results

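In 1 droplet library of GFP+ skeletal muscle cells after injury (SC_9), 62 of 1752 retained cells held unique molecular identifiers (UMIs, counts of captured transcripts) of at least 2 of the 5 bone genes Sp7, Bglap, Bglap2, Ibsp and Dmp1. The cells were chosen by these measured counts, among cells in which between 350 and 8000 genes were detected and mitochondrial genes took less than 20% of the UMIs. They made up 3.54% of the retained cells of the library (exact binomial 95% interval 2.72 to 4.51%) and compare with 32547 retained cells in all 5 libraries. As comparison cells, the 1148 SC_9 cells of at least 2000 UMIs with none of the 5 genes were taken. Every member held Sp7 and 59 of 62 held Ibsp, while Bglap was found in 3 cells, Bglap2 in 1 and Dmp1 in none. Beside Sp7 and Ibsp, the cells carried higher levels of Alpl, Spp1, Pth1r, Dlx5 and Mef2c than the comparison cells, and lower levels of Col1a1, Sparc and Fosl2. Of 9 osteoblast regulators considered 3 were 2-fold higher and 1 lower, and of 16 bone matrix and mineral genes 5 were higher and none lower. Over all 12507 genes considered 7.12% were 2-fold higher and 14.4% lower. Cartilage genes differed more, with 16 of 18 chondrocyte genes 2-fold higher and none lower. Of the 62 cells 36 (58.1%) were rich in Col2a1, the main collagen transcript of cartilage. Against comparison cells rich in Col2a1, Dlx5 and Mef2c were less than 2-fold higher in members. Cells that held only Sp7 of the 5 genes had about as much Dlx5 as members.

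The study sorted GFP+ cells from hindlimb skeletal muscle of Prx1Cre;RosamTmG mice on a C57BL6/J background, males or females 10 to 14 weeks old. It made 1 library per condition from 2 pooled mice. In all 5 libraries GFP marks cells in which the Prx1 promoter drove Cre, that is the limb mesenchyme and its descendants, and neither periosteum nor bone marrow was collected. The labels give d0 uninjured (SC3), d3 post-fracture (SC4), d5 post-fracture (SC5), d3 post-polytrauma (SC_9) and d5 post-polytrauma (SC10), where fracture is a non-stabilized tibial fracture and polytrauma adds a crush of the surrounding muscles. The label of SC_9 is in doubt. It held 2001 barcodes. That is the number of cells that the source data of the study list for d5 post-fracture, so that SC_9 is d5 post-fracture by its cell number and d3 post-polytrauma by its label. The library labelled d5 post-fracture (SC5) held 6915 barcodes. The libraries also differed in Col2a1, which stood in their comparison cells (chosen alike in each) at 328 CPM in SC_9, 34.1 in SC10, 8.08 in SC3, 0.537 in SC4 and 0.107 in SC5, where CPM is the count of a gene's UMIs after the UMIs of each group of cells were added up and scaled to the same total.

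SC_9 was the deepest library per cell, with 56084145 UMIs in all and a median of 29727 UMIs per retained cell, against 3328 in SC3 and between 14945 and 16961 in the other 3. The member cells were deeper still, from 2553 to 92633 UMIs with a median of 48523, against a median of 33653 for the comparison cells. Of the 438 deepest retained cells 33 (7.53%) were members, and of the 438 shallowest 1 (0.228%). Depth moves with membership, so the medians below were also taken against the 462 comparison cells between the depth quartiles of the members. They were then 0.40 for osteoblast regulators, 0.41 for bone matrix and mineral, 2.92 for chondrocyte and 1.80 for cell division genes on the log2 scale. SC_9 shared 944 barcodes with SC10 and none with SC3, SC4 or SC5. Of the 944, 888 held at least 10 times more UMIs in SC_9, where their median was 42228, against 870 in SC10. The barcodes of 53 members were among those found again in another library, all at least 10 times deeper in SC_9, and no rule cell of SC10 had a barcode of SC_9.

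Bone forms along 2 routes, directly from mesenchymal cells or through a cartilage model, and in a fracture callus the cartilage is later replaced by bone. Runx2 and Sp7 (osterix) encode the transcription factors that commit cells to the osteoblast line, and Sp7 is also active in cartilage cells that mature towards hypertrophy. Ibsp (bone sialoprotein) encodes an acidic matrix protein of early mineralization, Bglap and Bglap2 encode osteocalcin of mature osteoblasts, and Dmp1 marks late osteoblasts and osteocytes.

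The label of osteogenic cells rests on Sp7 and Ibsp, which chose the cells and so do not bear on it, and the late bone genes were at or near 0. Sp7 (chromosome 15, 102356606 to 102367182, minus strand, GENCODE M21 on GRCm38) ranged from 1 to 18 UMIs per member with a median of 3. Ibsp (chromosome 5, 104299171 to 104311469, plus strand) ranged from 0 to 697 UMIs with a median of 9. Bglap gave 3 UMIs in all and Bglap2 gave 2, and these genes are near-identical neighbours on chromosome 3 whose reads may be split between them. Dmp1 was at 0 of 62 cells, which allows a share of cells with a UMI of up to 4.84%. Bglap3, Mepe and Sost, of which the latter mark osteocytes, were also at 0, and Phospho1, a phosphatase of matrix vesicles, gave 2 UMIs. The pair Sp7 and Ibsp alone made up 58 of the 62 cells, Sp7 and Bglap made up 2, Sp7 and Bglap2 made up 1, and 1 cell held Sp7, Bglap and Ibsp. The cells are called members below and not by these genes, since 3 of them held no Ibsp and 16 held exactly 1 UMI of it.

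Ibsp spanned the widest UMI range of the 5 rule genes, and its promoter is shown for that reason. The RefSeq window lies at chr5:104299037-104299336 of GRCm38.p6 on the plus strand, from 250 bases before to 50 bases after the start site. Capitals mark a TGACGT match (cyclic AMP response element core) and an ATTGG match (inverted CCAAT box).
Ibsp: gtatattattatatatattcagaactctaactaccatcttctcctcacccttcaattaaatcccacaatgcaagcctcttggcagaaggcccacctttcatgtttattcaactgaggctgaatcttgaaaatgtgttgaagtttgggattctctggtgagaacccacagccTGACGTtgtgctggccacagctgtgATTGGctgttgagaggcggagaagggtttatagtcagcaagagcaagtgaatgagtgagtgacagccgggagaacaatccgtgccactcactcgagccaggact
The first match begins 79 bases and the second 54 bases before the RefSeq start site, and they do not overlap. The GENCODE start of Ibsp given above lies further upstream, so that both matches fall inside the gene in that annotation. Searched on both strands, TGACGT or ACGTCA was found in 7.51% and CCAAT or ATTGG in 37.4% of 32851 promoter windows of the same length. A match describes the letters and shows no binding.

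Ibsp was concentrated in few cells. Of 3377 Ibsp UMIs in members, the highest cell held 20.6% and the highest 5 cells held 49.4%. Counts of 10 or more Ibsp UMIs were found in 29 members and 100 or more in 10, whereas 16 members had exactly 1. Sp7 was spread more evenly, with 7.66% of its 235 UMIs in the highest cell and 22 members at exactly 1 UMI. For reference, the 355 cells of 4 clusters, led by Cxcl14 and Ifit1, by Pi16 and Dpp4, by Rgs5 and by Myh11, served as cells in which neither gene is expected, and 1 of them was a member. Among them Sp7 was found in 0.563% (0.0683 to 2.02%) with at most 2 UMIs and Ibsp in 4.23% (2.38 to 6.87%) with at most 5, at a median depth of 28535 UMIs. A single Ibsp UMI is thus within what cells of other types carried in this library, and a count of 10 or more is above the highest of these.

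**Figure D1:**
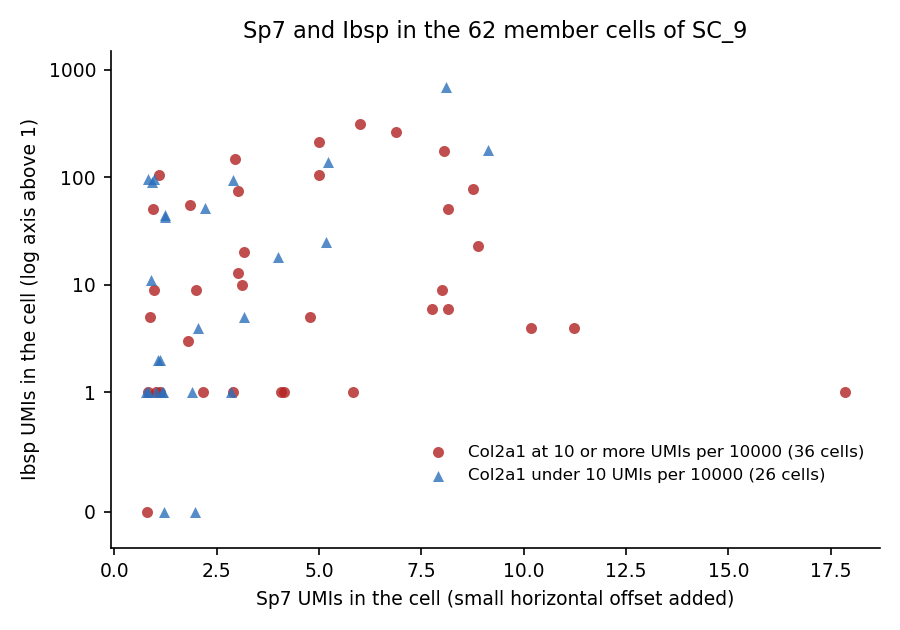
Sp7 UMIs (x axis) and Ibsp UMIs (y axis, log scale above 1) in each of the 62 member cells of SC_9, red circles for the 36 cells with Col2a1 at 10 or more UMIs per 10000 and blue triangles for the other 26. Ibsp spans 0 to 311 UMIs in the Col2a1-high and 0 to 697 in the other cells, and the 3 cells with 10 or more Sp7 UMIs, up to 18, are Col2a1-high.

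At the edge of the rule stood 239 cells with exactly 1 of the 5 genes, of which 129 held Sp7 alone, 102 Ibsp alone, 5 Bglap, 2 Dmp1 and 1 Bglap2. At the inner edge, 61 of the 62 members held exactly 2 genes. The cells with Sp7 alone were close to the members in depth, with a median of 50014 UMIs, and 63.6% of them were Col2a1-high (10 or more Col2a1 UMIs per 10000), against 58.1% of the members, 14.7% of the cells with Ibsp alone and 3.57% of the comparison cells. Their Alpl level was 137 CPM, against 284 in members and 85.0 in cells with Ibsp alone. Pth1r stood at 257, 487 and 80.1 CPM in the same order. Other genes were as high in the cells with Sp7 alone as in members, with Dlx5 at 35.4 and 36.1, Runx3 at 43.3 and 43.1, Runx2 at 71.9 and 71.8 and Smpd3 at 129 and 137. Cells with Ibsp alone mostly had a single UMI of it (68 of 102), and only 8 had 10 or more.

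Among regulators of the osteoblast line, the members carried more Dlx5, Dlx6 and Mef2c, and more Runx2 by less than 2-fold. Levels in CPM were compared as log2 ratios after adding 1 CPM. Over 12507 genes of at least 1 CPM in SC_9, the 5 rule genes left out, the median log2 ratio of members to comparison cells was -0.03. Of them 890 (7.12%) were at least 2-fold higher and 1797 (14.4%) at least 2-fold lower in members. The rule that chose the members also shaped this contrast, so that these counts are a background for the lists and nothing was read from them. Of the 9 osteoblast regulators above that level, 3 were 2-fold higher and 1 lower, with a median log2 ratio of 0.48. Dlx5, a homeobox gene upstream of Sp7, was at 36.1 CPM (exact Poisson 95% interval 29.6 to 43.6) in members and 8.67 in comparison cells. Dlx6, its neighbour and paralog, was at 8.76 and 0.90, and Mef2c, a factor of chondrocyte hypertrophy and of bone, at 269 and 88.4. Runx2 itself was at 71.8 (62.5 to 82.1) and 51.1 (48.8 to 53.4), a log2 ratio of 0.48, and was found in 88.7% of members and 60.8% of comparison cells. Fosl2, an AP-1 factor, was lower in members, at 68.8 against 193.

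Genes of bone matrix and mineral differed in how far they followed. Of 16 considered, 5 were 2-fold higher and none 2-fold lower, with a median log2 ratio of 0.48. Pth1r, the receptor for parathyroid hormone and PTHrP, was at 487 CPM (462 to 512) in members and 54.7 in comparison cells and was found in 60 of 62 members. Alpl, the tissue-nonspecific alkaline phosphatase that frees phosphate for mineral, was at 284 (266 to 304) and 60.2, in 53 members. Per cell, Alpl had a median of 1.83 UMIs per 10000 and quartiles of 0.35 and 5.74 in members, while its median in comparison cells was 0. After thinning every cell to 2000 UMIs, Alpl was found in 37.1% of members and 8.19% of comparison cells, and Pth1r in 53.2% and 9.93%. These 2 genes were thus higher in members at equal depth also.

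Spp1 (osteopontin) was at 559 CPM in members and 201 in comparison cells, with 1 cell holding 22.1% of its UMIs in members. Omd (osteomodulin), a leucine-rich protein of bone matrix, was at 69.4 and 12.2, and Smpd3, a sphingomyelinase needed for mineralization of cartilage and bone, at 137 and 4.09. The main bone collagen did not follow. Col1a1 was at 16406 in members and 24308.5 in comparison cells, Col1a2 at 9536 and 16668, and Sparc (osteonectin) at 7139 and 9914. Enpp1 and Ank, which control pyrophosphate outside the cell, were within 2-fold, with log2 ratios of 0.29 and 0.67. Ifitm5, an osteoblast membrane protein, gave 16 UMIs in 4 members, 75% of them in 1 cell.

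Cartilage genes were higher in members almost throughout. Of 18 chondrocyte genes considered, 16 were 2-fold higher in members and none lower, with a median log2 ratio of 2.99. Col2a1, the main collagen of cartilage, was at 7112 CPM in members and 328 in comparison cells and was found in 58 of 62 members. Acan (aggrecan) was at 1960 and 340, Hapln1 (link protein) at 815 and 48.6, Col9a1 at 876 and 59.1, and Sox9, the master factor of cartilage, at 627 and 313. Sox6, a partner of Sox9, was at 103 and 9.98. The 2 genes under 2-fold were Sox9, by a margin smaller than the rounding of its values, and Trps1, at a log2 ratio of 0.55.

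The defining genes of hypertrophy, the last stage of cartilage before it mineralizes, were found in few members, while Panx3, Runx3, Pth1r and Mef2c were found in most. Of 8 hypertrophic genes considered, 6 were 2-fold higher, with a median log2 ratio of 3.22. Panx3, a channel protein of hypertrophic cartilage and osteoblasts, was at 90.7 (80.1 to 102) and 2.57 CPM, in 37 members, and Runx3 at 43.1 and 3.42, in 45. By contrast Col10a1, the collagen that defines hypertrophy, was found in 4 members and Ihh, the hedgehog ligand of prehypertrophic cells, in 5. Of 64 Col10a1 UMIs in members, 59 came from 1 cell, which also held 25 of the 47 Ihh UMIs, 1085 Col2a1 UMIs, 6 Sp7 UMIs and 1 Ibsp UMI. A second cell held 12 Ihh, 266 Ibsp and 801 Col2a1 UMIs and no Col10a1. None of the 7 cells with Col10a1 or Ihh held Mmp13, a collagenase of the same stage.

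The 25 genes with the largest ratios, by the rule given under the processing, were led by Smpd3, Panx3, Smim5, Ncmap, Col2a1, Pcp4, 3110079O15Rik and Hapln1, with log2 ratios from 4.04 to 4.76. Cartilage collagens and matrix genes (Col11a2, Col9a3, Col9a1, Matn3, Cnmd) followed at 3.41 to 3.90. Trpv4, a mechanosensitive calcium channel of chondrocytes, was at 97.7 CPM in members and 7.15 in comparison cells. Frzb, a secreted Wnt antagonist of cartilage, was at 130 and 11.3. Poc1a, Scrg1, Meltf, Cox4i2, Gramd2, Runx3, Prss50, Sox6, Batf3 and Scin completed the 25, down to a log2 ratio of 3.16.

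Among the 15 genes lowest in members, 3 also belong to the lists, Rgs5 to pericytes, Mmp3 to the metalloproteinases and Sfrp4 to the Wnt pathway. Cxcl14, a chemokine, was at 6.07 CPM in members and 246 in comparison cells, Eln (elastin) at 7.41 and 280, Apod at 19.5 and 370, and Il33, an alarmin of stromal cells, at 1.69 and 61.8. Rgs5, a pericyte gene, was at 2.36 and 114. The others were Mmp3, Ccl11, Cygb, Iigp1, Ifi203, Plac8, C4b, Ifit1, Cxcl10 and Sfrp4, with members at 0.674 to 18.9 CPM. Mmp3 came from 1 member, and the highest member of each gene gave 64.3% of the Sfrp4, 65% of the Plac8 and 80% of the Ifit1 UMIs. Some of these low levels therefore rest on a single cell.

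**Figure D2:**
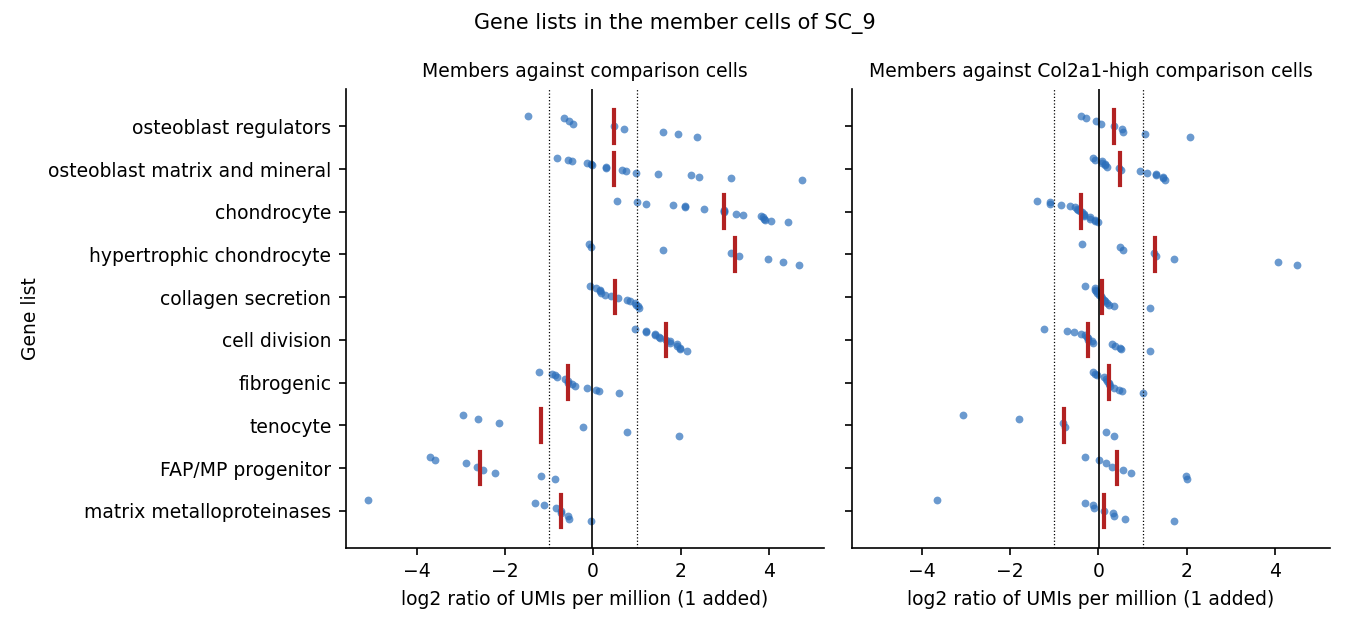
Log2 ratio of CPM (x axis, 1 added) for each gene of 10 lists (rows), members against the 1148 comparison cells on the left and against the 41 Col2a1-high comparison cells on the right. Red bars are list medians, the solid line is the median of all 12507 genes and dotted lines mark 2-fold. Cartilage genes lie right of the line on the left (median 2.99) and left of it on the right (median -0.39).

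The members fell into 36 Col2a1-high cells and 26 with less Col2a1. Between them, no bone matrix and mineral gene of 16 was 2-fold higher in the Col2a1-low members and 3 were 2-fold lower (Smpd3, Ifitm5 and Pth1r), where 11.6% of all genes were higher and 6.26% lower. None of 9 osteoblast regulators passed 2-fold in either direction. Col2a1 was at 11163 CPM in the former and 179 in the latter. Alpl was at 295 (271 to 320) in the Col2a1-high and 267 (237 to 299) in the Col2a1-low members, Omd at 78.0 and 54.8, Dlx5 at 38.4 and 32.0 and Runx2 at 66.2 and 81.3, so that for these 4 genes the 2 classes were within 1.5-fold. Spp1 was at 662 and 384, Mef2c at 322 and 179 and Ifitm5 at 8.01 and 0.914, the last from 1 UMI in the Col2a1-low members. Ibsp, a rule gene, was at 944 CPM (901 to 989) in the Col2a1-high and 1470 (1399 to 1544) in the Col2a1-low members, where 1 cell held 697 of 1609 UMIs. Sp7 was lower in them, with 14 of 26 cells at exactly 1 UMI against 8 of 36.

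Panx3 and Smpd3 followed Col2a1. They were at 135 and 209 CPM in the Col2a1-high members and at 14.6 and 11.9 in the Col2a1-low ones, and Pth1r was at 615 and 268. Fibrous collagens went the other way, with Col1a1 at 13640 and 21141, Col3a1 at 4272 and 9449 and Postn (periostin) at 2180 and 4175. Against the 1107 comparison cells with low Col2a1, the 26 cells still had 4 of 16 bone matrix and mineral genes and 3 of 9 regulators 2-fold higher, and 1 gene of each list (Ifitm5 and Fosl2) 2-fold lower. Among all genes 6.56% were higher and 13% lower. In that contrast Alpl had a log2 ratio of 2.18, Omd 2.18, Pth1r 2.42, Dlx5 1.87 and Dlx6 2.14, and 10 of 18 chondrocyte genes were 2-fold higher and 2 lower, with Col11a2 at 163 against 12.4 CPM and Hapln1 at 66.7 against 4.87. Within the 26 cells Col11a2 was found in 16 and Hapln1 in 11, so that these sums do not speak for each cell. Their Col2a1 had a median of 2 UMIs, and 1 cell just under the limit held 80 of their 196 Col2a1 UMIs.

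**Figure D3:**
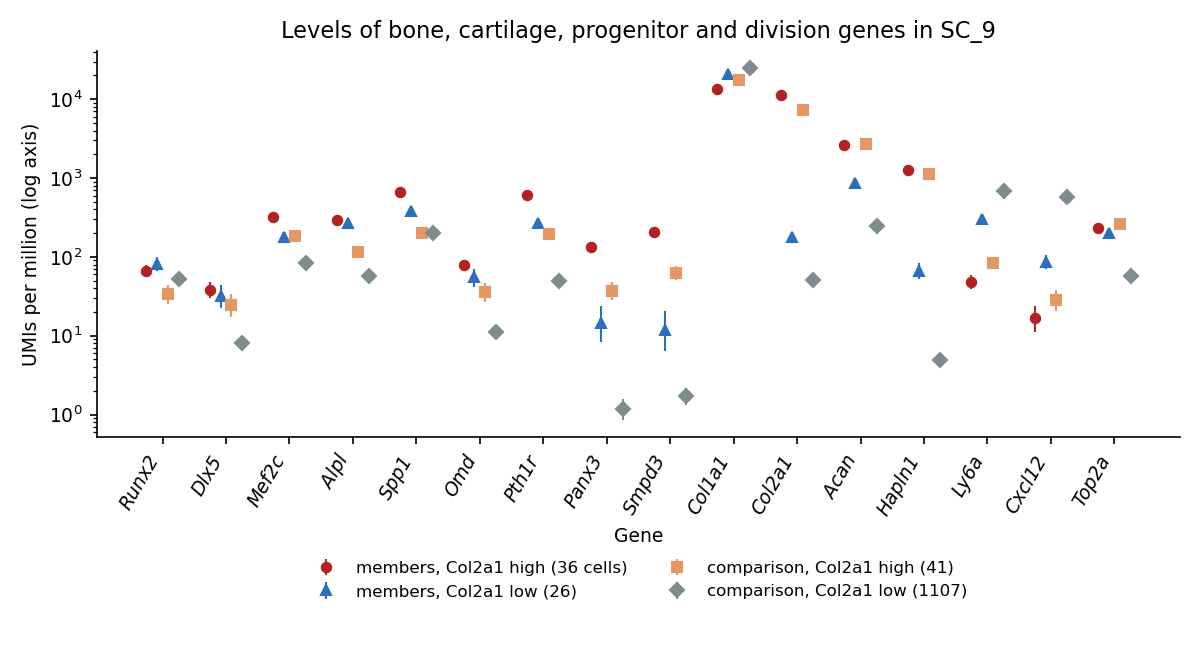
CPM (y axis, log scale) of 16 genes in the Col2a1-high and Col2a1-low members and in the Col2a1-high and Col2a1-low comparison cells of SC_9, with exact Poisson 95% intervals that cover counting error only. Alpl, Omd and Dlx5 are near each other in both member classes, Panx3 and Smpd3 follow Col2a1, and Ly6a and Cxcl12 are highest in the Col2a1-low comparison cells.

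Col2a1-high cells offer the closer reference. Against the 41 comparison cells that passed the same Col2a1 limit, 813 of 12507 genes (6.5%) were 2-fold higher in members and 357 (2.85%) 2-fold lower, again in a contrast that the rule shaped. Of 16 bone matrix and mineral genes 6 were higher and none lower, with a median log2 ratio of 0.49 where that of all genes was 0.02. The hypertrophic list differed more, with 5 of 8 genes higher and none lower and a median log2 ratio of 1.29. Pth1r belongs to both lists. Alpl was at 284 CPM in members and 115 (98.8 to 134) in Col2a1-high cells, Pth1r at 487 and 195, Spp1 at 559 and 203, Smpd3 at 137 and 63.0, Ank at 50.6 and 17.2 and Ifitm5 at 5.39 and 1.33, the last from 16 and 2 UMIs. Panx3 was at 90.7 and 37.1, Runx2 at 71.8 and 33.8 and Creb3l1, a factor for collagen secretion in osteoblasts, at 112 and 49.0. Of 9 osteoblast regulators 2 were higher and none lower, and with the Col2a1-high members alone 1 was higher and none lower. Dlx5, at 36.1 and 24.5, Mef2c, at 269 and 183, and Omd, at 69.4 and 35.8, were under 2-fold in this contrast. Of 18 chondrocyte genes none was higher and 3 were lower, with Ucma at 289 and 762, Fgfr3 at 73.1 and 157 and Chad at 21.6 and 47.1, and Col2a1 itself was at 7112 and 7196. The 2 groups differ in depth, at medians of 48523 and 36552 UMIs per cell, and in that the comparison cells were required to lack Sp7.

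With only the 36 Col2a1-high members in that comparison, 7 of 16 bone matrix and mineral genes were 2-fold higher and none lower, where 4.28% of all genes were higher, and none of 18 chondrocyte genes passed 2-fold in either direction, where 4.93% of all genes were lower. Of 8 hypertrophic genes 4 were higher and none lower, with a median log2 ratio of 1.23. By the same rule (at least 20 UMIs in at least 10 of all 62 members), the genes named as highest against Col2a1-high cells were Car13, Il11, Ccbe1, Rpl39l, Gm266, Rcan2, Ephx1, Prss46, Adra2a and Cpa6. Car13, Ccbe1, Rcan2, Ephx1 and Adra2a were not higher in members than in the comparison cells as a whole, with log2 ratios from -1.70 to -0.03. Il11, a cytokine needed for bone remodelling, was at 30.7 CPM in members, in 11 cells, and 1.99 in Col2a1-high cells. Car13, Ccbe1, Gm266 and Ephx1 were at 0 in the Col2a1-high cells, so that they were at least 5.26-fold, 4.24-fold, 3.90-fold and 3.56-fold higher in members by the limit that 0 counts allow over the group, and their place among the 10 depends on the 1 CPM added. Col10a1 and Ihh, also at 0 in the Col2a1-high cells, were at least 10.8-fold and 7.97-fold higher but were found in too few members for that rule. Among genes of at least 50 CPM in the Col2a1-high cells, the 10 lowest in members were Cxcl14, Tnmd, Thbs4, Nrk, Apod, Ucma, Fbxo7, Map7d2, Gclm and Aff3. Tnmd (tenomodulin), a tendon marker, was at 16.2 in members and 144 in Col2a1-high cells.

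Among all 1438 retained cells of at least 2000 UMIs, detection of Sp7 rose more with Col2a1 than that of Ibsp, a difference that was not tested. Sp7 was found in 3.06% (1.59 to 5.29%) of 392 cells with no Col2a1 UMI and in 78.1% (66.0 to 87.5%) of 64 cells with 100 or more Col2a1 UMIs per 10000. Ibsp was found in 6.12% (3.96 to 8.97%) and 31.2% (20.2 to 44.1%) of the same cells. The thinned shares, at 2000 UMIs per cell, were 0.255% and 20.3% for Sp7 and 1.79% and 15.6% for Ibsp. In the class of 10 to under 100 Col2a1 UMIs per 10000 they were 10.5% for each gene. Of 169 cells in the upper 2 classes, 36 were members, 92 held 1 of the 5 genes and 41 none. Most strongly Col2a1-positive cells thus held Sp7, and fewer of them Ibsp.

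**Figure D4:**
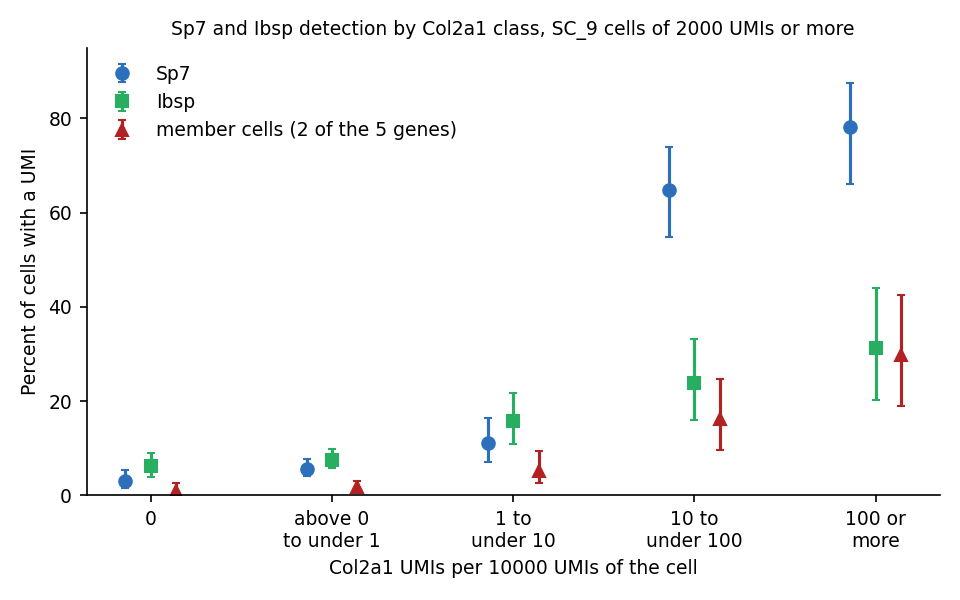
Percent of SC_9 cells of 2000 UMIs or more with a UMI of Sp7, of Ibsp, or of at least 2 rule genes (y axis) in 5 classes of Col2a1 UMIs per 10000 (x axis, 392, 687, 190, 105 and 64 cells), with exact binomial 95% intervals. Sp7 goes from 3.06% to 78.1% and Ibsp from 6.12% to 31.2% between the lowest and the highest class.

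The members were also split by their count of Ibsp, a gene of the rule, and 29 other genes were examined. The share of all genes past 2-fold was not taken for this split, so that no count of differing genes is read. In the 29 members with 10 or more Ibsp UMIs, Spp1 was at 752 CPM, against 406 in the 33 with fewer, Pth1r at 576 and 415, Alpl at 320 and 256 and Omd at 89.7 and 53.3. Col2a1 was at 7428 and 6860, Acan at 1804 and 2085, Smpd3 at 166 and 113 and Runx2 at 81.3 and 64.2. Mmp13 was at 201 and 36.3, Ifitm5 at 9.88 and 1.82, Ly6a at 60.8 and 203 and Il11 at 18.2 and 40.6. Single cells held much of each, with 216 of the 264 Mmp13 and 12 of the 13 Ifitm5 UMIs of the former and 268 of the 336 Ly6a and 24 of the 67 Il11 UMIs of the latter. Of the Spp1 UMIs, 1 cell held 269 of 989 in the former and 1 cell 367 of 670 in the latter. The 33 with fewer were the deeper cells, at a median of 53305 against 42708 UMIs. The 8 members with exactly 1 UMI of Sp7 and 1 of Ibsp, the weakest evidence for both genes, had Alpl at 145 and Spp1 at 74.1 CPM. Alpl was found in 4 of them, with 27 of its 49 UMIs in 1 cell, and 1 cell held 19 of the 25 Spp1 UMIs.

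Many signalling genes had few UMIs. Of all genes considered 7.12% were 2-fold higher and 14.4% lower in members than in comparison cells. The list counts here and below stand beside these shares, and departures from them were not tested. In the hedgehog and PTHrP list of 8 genes, 2 were 2-fold higher and 4 lower in members than in comparison cells. Ptch1, a hedgehog receptor and target, was at 55.9 and 21.3 CPM and Pth1r at 487 and 54.7, while Pthlh (PTHrP) gave 4 UMIs in members. In the BMP pathway 2 of 18 were higher and 3 lower. Id1, a BMP target, was at 101 and 29.3, Nog (noggin) gave 8 UMIs, Bmp4 was at 0.67 from 2 UMIs against 19.8, and Bmp2 was at 17.5 and 11.3.

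In the Wnt pathway 3 of 15 were 2-fold higher and 5 lower, where 7.12% of all genes were higher and 14.4% lower. The higher ones were Wnt10b, Nkd2 and Wif1. The lower ones included the secreted antagonists Sfrp1, at 229 and 1277 CPM, Sfrp2, at 317 and 1691, and Dkk2, at 7.41 and 45.1, with 63.6% of its member UMIs in 1 cell. Of 5 ligands that act on osteoclasts, Tnfrsf11b (osteoprotegerin, the decoy receptor of RANKL) was higher, at 61.0 and 7.02, and Tnfsf11 (RANKL), Csf1, Il6 and Ccl2 were lower, with Tnfsf11 at 14.2 and 57.2. These counts depended on the comparison, and against Col2a1-high cells 6.5% of all genes were higher and 2.85% lower. Against Col2a1-high cells the ligands had 4 of 5 higher and none lower, with Tnfrsf11b at 68.9 and Tnfsf11 at 5.96 CPM in those cells, the Wnt pathway had 6 of 15 higher and 1 lower, the hedgehog and PTHrP list 4 of 8 higher, 3 of these with at most 4 UMIs in members and none in those cells, and 1 lower, and the BMP pathway none of 18 higher and 3 lower. With the Col2a1-high members alone, against the same cells, none of the 5 ligands was higher and 1 was lower. Of all genes 4.28% were higher and 4.93% lower there. Single cells gave 63.4% of the Ccl2 and 50.5% of the Il6 UMIs of the members. Of 9 matrix metalloproteinases and inhibitors none was higher and 3 were lower, with Mmp13 at 109 and 113, of which 1 member gave 66.7%. Of 14 genes for collagen folding and secretion 2, Plod1 and Plod2, were higher and none lower, with a median log2 ratio of 0.50.

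Genes of cell division were higher in members when their UMIs were summed. All 15 had ratios above 0 and 14 were 2-fold higher, with a median log2 ratio of 1.66. Of all genes 7.12% were 2-fold higher and 14.4% lower. Mki67 was at 143 CPM in members and 44.7 in comparison cells, in 37 of 62 members, and Top2a at 220 and 65.0. Against Col2a1-high cells 1 was higher and 1 lower, with a median log2 ratio of -0.23, where 6.5% of all genes were higher and 2.85% lower. Mki67 was at 209 CPM in those cells. In the Col2a1-low members all 15 were 2-fold above the Col2a1-low comparison cells. By the clusters given below, Mki67 was at 274 CPM in the 30 members of the dividing cluster. It was at 13.7 in the 21 of the cartilage cluster and 3.28 in the 8 of another, both below the comparison cells. Genes of the fibro/adipogenic and mesenchymal progenitors of muscle (FAP/MP) were low, with 7 of 8 at least 2-fold below the comparison cells and a median log2 ratio of -2.56. Against Col2a1-high cells none of the 8 was 2-fold lower and 2 (Pi16 and Dpp4, each mostly or wholly from 1 member) were higher, with a median of 0.43. Ly6a was at 140 CPM in members, 657 in comparison cells and 83.5 in Col2a1-high cells, with 64.4% of its member UMIs in 1 cell that held neither Ibsp nor Col2a1. Dpp4 was found in 1 member, and 1 member gave 85.7% of the Pi16 UMIs. Cxcl12 was at 42.1, 561 and 28.5 CPM in the same order.

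In the remaining lists, the fibrogenic genes had 1 of 13 lower (Col3a1) and a median of -0.57, and the tenocyte genes had 1 of 6 higher (Fmod, at 858 and 221 CPM) and 3 lower. Of all genes 7.12% were higher and 14.4% lower in members than in comparison cells. Of 10 skeletal progenitor genes 3 were higher (Lepr, Nes and Cd200) and 2 lower, and of 7 pericyte genes 1 was higher (Cspg4) and 5 lower. Of 6 osteocyte genes 2 were considered, and Pdpn was lower. The stress genes Fos, Jun and Hspa1a and the nuclear RNA Malat1 were lower in members, with Fos at 1956 and 4132 CPM, and the median share of mitochondrial UMIs was alike at 5.20 and 5.15%.

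Markers of blood, endothelial and muscle cells were at or near 0, and some adipocyte and osteoclast genes were found. The 7 hematopoietic genes summed to 5 UMIs in members, at 1.69 CPM against 16.95 in comparison cells, with Ptprc, Itgam and Tyrobp at 0. The 5 endothelial genes summed to 5 UMIs, at 1.69 and 11.6 CPM, led by Tek (3 UMIs in 1 cell), with Cdh5, Kdr and Emcn at 0. All 5 myogenic genes were at 0 and the 5 erythroid genes gave 3 UMIs, led by Hbb-bs. Of the osteoclast genes Acp5 gave 38 of 40 UMIs, at 12.8 CPM against 19.7 in comparison cells, and Calcr, Ocstamp, Dcstamp, Atp6v0d2 and Tnfrsf11a were at 0. The 6 adipocyte genes summed to 81 UMIs, at 27.3 CPM against 144 in comparison cells, led by Fabp4 at 10.1, with Adipoq at 0. Of 4 of them considered none was higher and 2 were lower, where 14.4% of all genes were lower.

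In a clustering of the retained cells into 10 groups, from which the 5 rule genes were left out, the members lay mainly in 2 of them. The cluster led by Hist1h2ap, Top2a and Mki67 held 30 members (15.7% of its 191 cells) and the cluster led by Hapln1, Col2a1 and Smpd3 held 21 (21.4% of its 98). Another cluster of 360 cells, led by Ank, Adra2a, Enpp1 and Scx, held 8, none of them Col2a1-high, and the other clusters held 3. The 8 had Alpl at 301 and Ibsp at 632 CPM with Col2a1 at 98.3 and Top2a at 3.28, against Alpl at 261, Col2a1 at 4750 and Top2a at 428 in the 30 of the dividing cluster and Alpl at 336, Col2a1 at 13733 and Top2a at 8.81 in the 21 of the cartilage cluster. Summed Alpl thus ranged from 261 to 336 CPM over members whose Col2a1 and Top2a differed far more. In the 8, however, 1 cell held 47 of the 92 Alpl UMIs, and the highest Ibsp cell held 96 of 193. Their levels therefore rest largely on single cells.

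Applied to the other libraries, the same rule found 29 cells in SC3 (0.54% of retained cells), 2 in SC4, 1 in SC5 and 25 in SC10 (0.198%). After thinning to 2000 UMIs the rule found 5 cells in SC_9 (0.348%, 0.113 to 0.81%), 22 in SC3 (0.566%, 0.355 to 0.855%), 4 in SC10 (0.0347%) and none in SC4 and SC5. Under this rule the larger share of SC_9 over SC3 was therefore not present at equal depth. The interval of SC_9 overlapped that of SC3 and lay above that of SC10 (0.00946 to 0.0889%). The SC3 share rests on Bglap and Bglap2, whose reads may be split between them and which were counted as 1 gene in SC_9 only. After the same thinning Sp7 was found in 2.16% of SC_9 and 0.154% of SC3 cells, and Ibsp in 3.48% and 0.18%. The rule cells also differed in which genes they held. In SC3, Bglap2 was found in 29 of 29 rule cells and Bglap in 28, at 4117 and 2402 CPM, with Sp7 in 8 and Ibsp in 6 cells.

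The SC3 rule cells had no Col2a1 UMI, which at a median of 7377 UMIs per cell allows up to 10.3% of cells with a UMI and sets no limit on cells that express it, and Col1a1 was at 19934 and Omd at 527 CPM. In SC10 the rule cells held the pair seen in SC_9, with Sp7 in 24 and Ibsp in 25 of 25 cells, Bglap and Bglap2 at 2 UMIs each, and 11 Col2a1-high cells. Their Alpl was at 512 (455 to 574) and Pth1r at 1026 CPM, against 3.49 and 41.7 in the comparison cells of SC10. Of 17 chondrocyte genes considered in SC10, 16 were 2-fold higher and none lower, where 5.89% of 11962 genes were higher and 18.9% lower. SC10 differed from SC_9 in other genes. Spp1 was at 160 CPM (129 to 196) in its rule cells and 677 in its comparison cells, the opposite direction to SC_9. Of 16 bone matrix and mineral genes 5 were 2-fold higher and 3 lower, against 5 and none in SC_9, and of 15 cell division genes 1 was 2-fold higher, against 14 in SC_9. Mki67 was at 115 CPM in the rule cells and 84.4 in the comparison cells of SC10, against 143 and 44.7 in SC_9. The comparison cells thus differed between the libraries as well. The difference between the libraries was not tested. Col10a1 gave 90 UMIs in 4 of its rule cells and Ihh 70 in 6. These libraries were sequenced to different depths and each is 1 pool, so that their conditions cannot be told apart from the libraries.

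**Figure D5:**
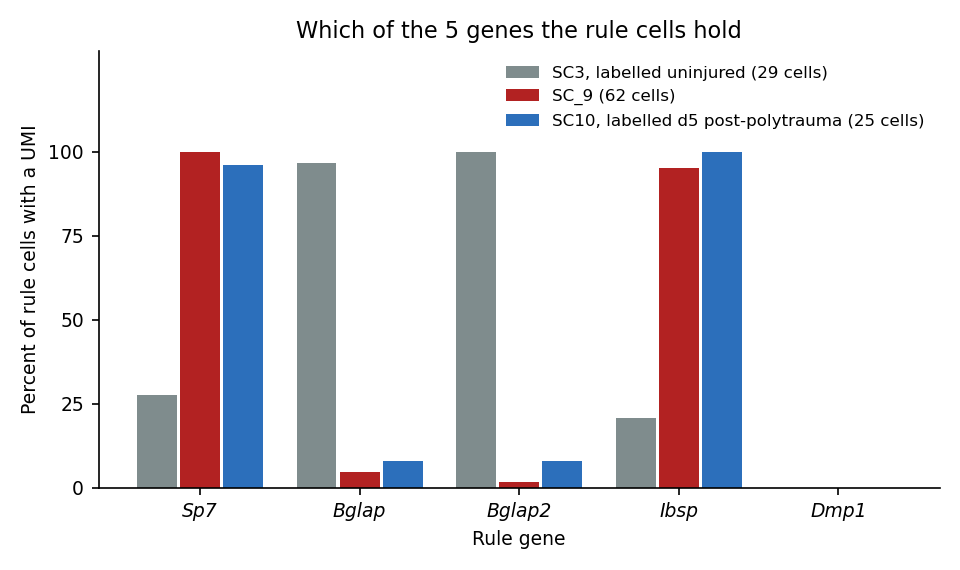
Percent of rule cells with a UMI (y axis) of each of the 5 rule genes (x axis) in SC3 (29 cells), SC_9 (62 cells) and SC10 (25 cells). Bglap and Bglap2 fill the bars of SC3, Sp7 and Ibsp those of SC_9 and SC10, and Dmp1 is at 0 in all of them.

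No p-value is given, because each condition had 1 library and the cells were chosen by their counts. All intervals cover counting error only.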

How the data were processed

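GFP+ cells of 5 libraries were analysed. The authors aligned reads to mm10 with Cell Ranger (3.1.0 in the matrix header, while the study's methods name another version) and deposited raw UMI counts per gene and barcode, not normalized. The submitters' processing notes also name Seurat 3.1.2. Depth ranged from 18247307 to 204474562 UMIs per library. Cells were retained as stated above. Possible doublets were kept: Scrublet called 1 cell automatically, so the 25 highest scores (0.8% per 1000 cells) were left out as an alternative, and none was a member. UMIs were summed per group and scaled to CPM, with exact Poisson intervals for levels and Clopper-Pearson intervals for shares. A count of 0 was given the limit of 3 counts per group. Genes of at least 1 CPM entered ratios. Single genes were named as the 25 highest (at least 20 UMIs in 10 members, no cell with most of the UMIs), the 15 lowest (at least 50 CPM in comparison cells), 10 each way against Col2a1-high cells (same limits, 50 CPM in those cells), and genes of 25 lists (237 genes, 2 of them not in the matrices). Genes against the low-Col2a1 comparison cells were named after their values were seen. Members, lists and rules were chosen with earlier results of these data known. Clusters were made with Seurat 5.3.0 in R 4.3.3 (2000 variable genes, 20 components, resolution 0.5) and doublets scored with Scrublet in scanpy 1.11.5. Ratio and interval code was tested on simulated data.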

Additional observations from a re-analysis of the deposited data

How the results depend on the processing

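The number of members depended on the rule and on depth. It was 62 (3.54% of retained cells) and became 31 (1.77%) when 2 genes had to have at least 2 UMIs each, 5 (0.348%) after thinning to 2000 UMIs and 1 (0.0571%) when 3 of the 5 genes were required. It was within 1.5 times with Bglap and Bglap2 as 1 gene, with all barcodes, without possible doublets and without shared barcodes.

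None of the 7 list medians examined against the comparison cells changed sign under the alternatives. The reference itself mattered more. Against Col2a1-high cells the medians had the opposite sign for chondrocyte (-0.39), fibrogenic (0.23), progenitor (0.43) and cell division genes (-0.23). They kept their sign for osteoblast regulators (0.36), bone matrix and mineral (0.49) and hypertrophic genes (1.29). Against the comparison cells, with equal weight per cell, the medians were 0.70 for osteoblast regulators, 0.75 for bone matrix and mineral, 1.93 for cell division and -0.48 for fibrogenic genes. With 5 CPM added, they were 2.86 for chondrocyte and 2.21 for hypertrophic genes, and the numbers of genes past 2-fold were 529 higher and 890 lower. With genes of at least 10 CPM these numbers were 489 and 985. With 2 UMIs of each of 2 genes, the medians were 2.49 for hypertrophic and -3.82 for progenitor genes, and centring on the median of all genes gave -0.54 for fibrogenic genes. In alternatives chosen after seeing the data, members with 2 or more Ibsp UMIs had medians of 2.86, 2.40, -0.48 and -3.61 for chondrocyte, hypertrophic, fibrogenic and progenitor genes. Col2a1-high members had 3.60 for chondrocyte, -0.83 for fibrogenic and -4.30 for progenitor genes, and Col2a1-low members 0.25 for regulators, 0.73 for bone matrix and mineral, 0.38 for chondrocyte, 1.62 for hypertrophic, -0.056 for fibrogenic and -1.45 for progenitor genes. With genes at 0 set to the limit of 3 counts, the hedgehog and PTHrP median against Col2a1-high cells went from 0.52 to -0.58 and the hematopoietic one, over 4 genes of at most 1 UMI in members, from 0.21 to -2.13. Causes were not tested. With 1 library per condition, no value has a replicate error, and no paired analysis was possible because the groups share fewer than 2 replicate numbers.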
